A study of Mus musculus with 88 samples.

Results

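This account follows 10 mouse genes, Dppa3 and 9 genes that write, copy or remove DNA methylation, through RNA-seq of mouse embryonic stem cells (mESCs) and late 2-cell embryos. The members were the rows with the symbols Dppa3, Dnmt1, Dnmt3a, Dnmt3b, Dnmt3l, Uhrf1, Tet1, Tet2, Tet3 and Tdg. Each symbol stood for 1 row in each of 2 tables of transcript abundance, so 10 of the 55364 genes per table are described here. Positions are those of RefSeq for GRCm38.p6, while the submitters' processing notes name mm10, the same assembly before patches. Dppa3 spans chromosome 6, 122626424 to 122630271. Dnmt3a spans chromosome 12, 3801559 to 3914443, and Dnmt3l spans chromosome 10, 78042287 to 78063622. Tet2 spans chromosome 3, 133463677 to 133545136.

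The series lists 88 samples made to study newly made RNA and the homeobox gene Obox3 at the start of embryonic transcription. The 25 libraries used here measured total RNA, and 63 samples were not analysed here. The first table holds 19 libraries of wild-type male mESCs of a C57BL/6 and 129 hybrid background, kept with LIF, the MEK inhibitor PD0325901 (0.5 uM) and the GSK3 inhibitor CHIR99021 (3 uM), and transfected by lipofection with a plasmid. ES_Empty (empty plasmid), ES_Dux, ES_Obox3, ES_Obox5 and ES_Obox6 had 2 libraries each, and 9 further plasmids (Obox1, Obox2, Obox4ps27, Obox4ps35, Obox7, Obox8 and Crxos1 to Crxos3) had 1 library each. All of the transfected cells, the controls included, were in the presence of both inhibitors, a medium that holds mESCs in a naive state. The second table holds 6 libraries of late 2-cell embryos on a BDF1 background, with 2 libraries a group. ICSI_L2C embryos came from injection of a sperm into an oocyte. SCNT_EGFP_L2C and SCNT_Obox3_L2C embryos came from transfer of a cumulus cell nucleus into an enucleated oocyte, followed by 10 ng/ul of EGFP or Obox3 mRNA. The labels give no share of transfected cells and do not tie libraries to separate cultures or embryo collections, so p-values measure the spread between libraries, which may be technical.

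DNA methylation is set by Dnmt3a and Dnmt3b, assisted by Dnmt3l, which resembles them but has no catalytic activity. It is copied at replication by Dnmt1, which the hemimethylated-DNA reader Uhrf1 brings to new DNA. The Tet enzymes oxidise 5-methylcytosine, and the glycosylase Tdg excises the most oxidised forms so that base excision repair can restore cytosine. Dppa3 (also called Stella or Pgc7) is a maternal factor that shields methylation of the maternal genome in the zygote, where Tet3 is the main Tet enzyme, and it also binds Uhrf1 and limits its access to chromatin. In naive mESCs methylation is low, Tet1 and Tet2 are the main Tet enzymes, and a short form of Dnmt3a made from an internal promoter is the usual one.

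Abundance is given in TPM, a share of each library's transcripts after allowing for gene length. Levels of different genes can therefore be set side by side within a library, but bulk TPM cannot tell a change in the cells that express a gene from a change per cell. For a 1-kb gene, 1 TPM stood for 2.27 to 7.37 reads per mESC library and 5.06 to 13.9 reads per embryo library. The 10 most abundant genes took 48.9 to 73.8% of the TPM in mESCs and 57.4 to 72.6% in embryos, and a gain there lowers every other TPM. The median log2 difference of all genes tested from ES_Empty was -0.97 in ES_Dux, -0.42 in ES_Obox3, -0.20 in ES_Obox5 and -0.09 in ES_Obox6. After scaling each library by the median ratio of its genes to the mean library, these medians were -0.06, 0.00, 0.02 and 0.05. Values on the 2 scales are called "deposited" and "rescaled" below. The plasmid's gene was present in its own libraries in each group, at 1548 and 1979 TPM for Duxf3 (Dux) in ES_Dux, 971 and 933 TPM for Obox5 and 2031 and 1959 TPM for Obox6. In mESCs the reads of Obox3 lay mostly on its near-identical copy Obox3-ps5, at 450.7 and 263 TPM in ES_Obox3 and at 0 in ES_Empty. In embryos this copy stood at 56.8 and 62.4 TPM in SCNT_Obox3_L2C, 1.19 and 6.87 TPM in SCNT_EGFP_L2C and 118 and 99.5 TPM in ICSI_L2C, which received no Obox3 mRNA. The Obox3 row itself held 6.74 and 5.02 TPM in SCNT_Obox3_L2C, 0.470 and 3.22 in SCNT_EGFP_L2C and 78.7 and 64.6 in ICSI_L2C. All 7 mESC markers on a list of 7 stood at 1 TPM or more in every mESC library.

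The start-site sequences of 9 of the 10 members were found in RefSeq on GRCm38.p6, as 16 windows running from 250 bases before to 50 bases after a start. The windows below are those of Dnmt3a and Dnmt3l, whose levels moved in opposite directions in ES_Obox6, and of Tet2. Tet2 lay below ES_Empty in all 4 replicated groups set against it. They are written 5′ to 3′ with each CpG, the site of methylation, in capitals.
Dnmt3a, most CpG-rich start (chr12:3806910-3807209, plus strand): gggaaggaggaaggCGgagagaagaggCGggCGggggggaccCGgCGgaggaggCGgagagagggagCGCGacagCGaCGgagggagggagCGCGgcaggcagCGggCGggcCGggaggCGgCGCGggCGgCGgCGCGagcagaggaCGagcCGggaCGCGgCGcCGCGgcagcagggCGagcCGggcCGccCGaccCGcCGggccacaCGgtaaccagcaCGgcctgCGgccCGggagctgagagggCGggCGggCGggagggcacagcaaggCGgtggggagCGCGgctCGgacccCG
Dnmt3a, internal start (chr12:3891494-3891793, plus strand): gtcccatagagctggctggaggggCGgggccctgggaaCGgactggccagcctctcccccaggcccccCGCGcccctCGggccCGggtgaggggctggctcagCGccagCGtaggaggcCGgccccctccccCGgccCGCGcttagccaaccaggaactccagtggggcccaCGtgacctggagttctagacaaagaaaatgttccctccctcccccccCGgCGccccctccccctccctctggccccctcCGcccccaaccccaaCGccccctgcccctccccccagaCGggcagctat
Dnmt3l, first start (chr10:78042037-78042336, plus strand): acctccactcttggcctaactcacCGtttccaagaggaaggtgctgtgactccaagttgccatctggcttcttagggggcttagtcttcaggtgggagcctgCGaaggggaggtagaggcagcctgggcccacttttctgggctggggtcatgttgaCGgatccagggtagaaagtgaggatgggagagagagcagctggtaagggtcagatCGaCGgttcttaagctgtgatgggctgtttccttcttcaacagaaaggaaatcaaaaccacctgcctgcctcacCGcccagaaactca
Tet2 (chr3:133544341-133544640, minus strand): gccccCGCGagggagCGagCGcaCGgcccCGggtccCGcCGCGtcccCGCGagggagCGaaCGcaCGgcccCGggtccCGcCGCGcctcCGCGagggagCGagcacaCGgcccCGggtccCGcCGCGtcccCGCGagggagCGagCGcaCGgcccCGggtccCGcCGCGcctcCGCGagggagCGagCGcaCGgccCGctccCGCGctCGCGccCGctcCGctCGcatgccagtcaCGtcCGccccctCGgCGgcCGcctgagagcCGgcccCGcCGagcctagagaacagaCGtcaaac
The windows hold 47 CpG at the first Dnmt3a start shown, 18 at its internal start, 6 at Dnmt3l and 57 at Tet2. The median of all 32851 windows in the table was 7. Another Dnmt3a window, which overlaps the first shown and starts further 5′, held 46 CpG. The other Dnmt3l starts held 4 and 3 CpG. At Tet2, 99.8% of all windows had fewer CpG, and at the first Dnmt3l start 43.6% had fewer. The letters TAATCC, a sequence that homeodomains related to Crx can bind, were searched on both strands and stood in 1 of the 16 member windows (Tdg) and in 7.06% of all windows. The letters TAATTA stood in 0 of the 16 and in 5.29% of all. The data are sums over each gene, so they do not show which start was used.

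Differences between groups were tested with limma on log2(TPM + 1) across all genes, and a gene was called at a Benjamini-Hochberg adjusted p under 0.05 with a log2 fold change of 1 or more in either direction. Against ES_Empty, all 10 members passed the filter on low values (2 or more of the 10 libraries at 1 TPM), but Tet3 did so through the ES_Obox3 libraries alone. In ES_Dux 0 members were higher and 7 lower, where 48.5% of all genes were called, 4.12% higher and 44.4% lower, so lower values were common among genes in general there. Rescaled, 2 members remained, Tet1 and Tet2, against 9.14% of all genes (6.83% higher, 2.3% lower). In ES_Obox3 2 members were higher and 3 lower, and 18.3% of all genes were called (4.67% higher, 13.6% lower). Rescaled, 4 (Tet3 among them) were higher and 1 lower, against 11.5% of all genes (7.74% higher, 3.76% lower). In ES_Obox5 3 were higher and 1 lower on both scales, against 10.3% of all genes (4.79% higher, 5.47% lower) as deposited and 8.5% (6.16% higher, 2.34% lower) rescaled. In ES_Obox6 2 were higher and 1 lower, against 4.38% of all genes (2.39% higher, 1.99% lower), and rescaled 3 and 1, against 4.45% (3.28% higher, 1.17% lower). The members' median log2 change was -1.39 in ES_Dux, -0.83 in ES_Obox3, -0.55 in ES_Obox5 and -0.29 in ES_Obox6 as deposited, and -0.12, -0.21, -0.24 and -0.12 rescaled. These 4 comparisons share the ES_Empty libraries.

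**Figure D1:**
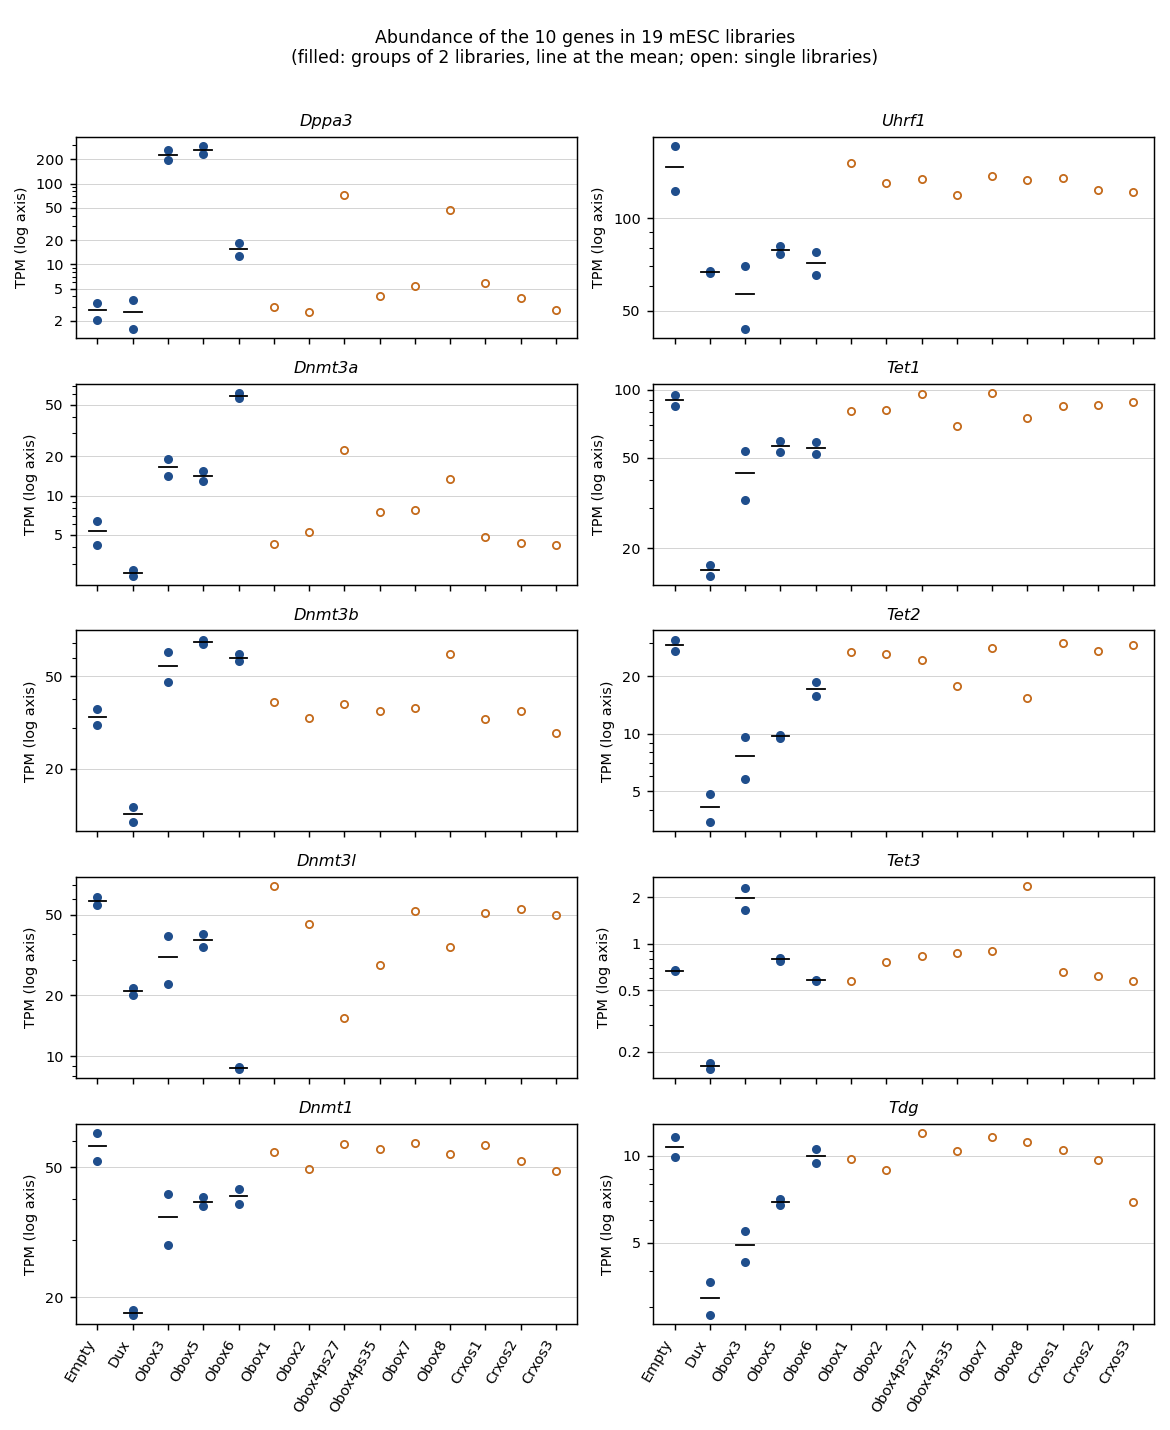
TPM (log axis) of the 10 genes in each of 19 mESC libraries, with filled points for groups of 2 libraries, a line at their mean, and open points for single libraries. Dppa3 lies at 199 TPM or above in all ES_Obox3 and ES_Obox5 libraries and at 3.31 or below in ES_Empty, while Dnmt3a is highest and Dnmt3l lowest in ES_Obox6.

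Dppa3 had the widest range of the 10 members in mESCs, from 1.58 to 290.1 TPM over the 19 libraries. It stood at 3.31 and 2.07 TPM in ES_Empty and at 1.58 and 3.59 TPM in ES_Dux. It stood at 260.3 and 199 TPM in ES_Obox3 and at 290.1 and 229.8 TPM in ES_Obox5. In ES_Obox6 it stood at 18.6 and 12.6 TPM. The ES_Dux and ES_Empty libraries overlapped, the ES_Obox6 libraries lay above both, and those of ES_Obox3 and ES_Obox5 overlapped each other far above the rest. The means were 2.69 ± 0.879 TPM in ES_Empty and 229.6 ± 43.5, 259.9 ± 42.6 and 15.6 ± 4.25 TPM in ES_Obox3, ES_Obox5 and ES_Obox6 (SD, n = 2). Dppa3 rose 85.3-fold in ES_Obox3 (log2 5.97, SE 0.327, adjusted p = 3.23e-05, limma) and 96.6-fold in ES_Obox5 (log2 6.15, adjusted p = 2.78e-05). It rose 5.79-fold in ES_Obox6 (log2 2.16, adjusted p = 0.00702), a call that was lost without ES_Empty library 2 (adjusted p = 0.0535). In ES_Dux the log2 difference was -0.08 as deposited (adjusted p = 0.863) and 0.96 rescaled (adjusted p = 0.0481), short of the fold threshold on both. The rows of Dppa3 and its copy Dppa3-ps may share reads, and Dppa3-ps was listed at 0 in both ES_Empty libraries and at 5.38, 10.1 and 0.792 TPM on average in ES_Obox3, ES_Obox5 and ES_Obox6.

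Among the single libraries, which allow no test, Dppa3 stood at 71.7 TPM with Obox4ps27 and 47.4 TPM with Obox8, log2 differences of 4.32 and 3.73 from the ES_Empty mean. Among genes at 1 TPM or more in at least 2 of the 3 libraries set against each other, 3 members lay past a log2 difference of 1 with Obox4ps27 and 2 with Obox8, against 5.99% and 7.8% of all genes. Tet3, below that filter, stood at a log2 difference of 1.01 with Obox8 (0.92 rescaled). Dppa3 was 4.06 TPM with Obox4ps35 and 2.53 to 5.88 TPM in the other 6, close to the ES_Empty values. The order of Dppa3 was therefore ES_Obox5 and ES_Obox3, then Obox4ps27, Obox8 and ES_Obox6, and then the remaining plasmids, ES_Empty and ES_Dux. The first pair overlapped, and among the last the values run together. Of the 5 listed neighbours of Dppa3 on chromosome 6 (Apobec1, Gdf3, Nanog, Slc2a3 and Foxj2), 0 were called in ES_Obox3 or ES_Obox5 by limma. Of all genes, 18.3% and 10.3% were called there, so 0 of 5 does not set the neighbours apart from genes in general. In ES_Obox6 the growth factor gene Gdf3 was lower (23.96 ± 0.129 TPM in ES_Empty, 6.92 ± 1.61 in ES_Obox6, SD, n = 2, log2 -1.67, adjusted p = 0.0107).

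Of the genes for methylation of unmodified DNA, Dnmt3a rose in the 3 Obox groups and most in ES_Obox6. It stood at 6.42 and 4.17 TPM in ES_Empty and at 2.69 and 2.43 TPM in ES_Dux. It stood at 19.2 and 14.0 TPM in ES_Obox3, at 15.4 and 12.9 TPM in ES_Obox5 and at 61.5 and 56.0 TPM in ES_Obox6. No library of the 3 Obox groups overlapped ES_Empty. Dnmt3a was 11.1-fold higher in ES_Obox6 (log2 3.27, SE 0.231, adjusted p = 0.000322, limma), 3.14-fold in ES_Obox3 (log2 1.49, adjusted p = 0.00249) and 2.66-fold in ES_Obox5 (log2 1.28, adjusted p = 0.00818). The ES_Obox5 call was lost without ES_Empty library 2 (adjusted p = 0.0608) or ES_Obox5 library 1 (adjusted p = 0.0674). In ES_Dux the log2 difference was -0.80 as deposited and 0.32 rescaled, and neither was called. Dnmt3a stood at 22.4 TPM with Obox4ps27 and 13.4 TPM with Obox8 (log2 differences 1.92 and 1.22), at 7.51 TPM with Obox4ps35, and at 4.17 to 7.72 TPM with the other 6 plasmids. Obox4ps27 and Obox8 were thus the single libraries past a log2 difference of 1 for both Dnmt3a and Dppa3, while ES_Obox6, the group with the most Dnmt3a, had less Dppa3 than ES_Obox3 or ES_Obox5.

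Dnmt3l, the non-catalytic partner, went the other way in ES_Obox6. Its level was 61.4 and 55.8 TPM in ES_Empty, 39.3 and 22.7 TPM in ES_Obox3, 40.2 and 34.8 TPM in ES_Obox5 and 8.86 and 8.68 TPM in ES_Obox6. ES_Obox6 was the lowest of all 19 libraries and its libraries differed little. Dnmt3l fell to 0.150 of ES_Empty there (log2 -2.61, SE 0.245, adjusted p = 0.00101, limma). The log2 differences in ES_Obox3 and ES_Obox5 were -0.95 and -0.63 and were not called. Without ES_Obox3 library 1 the ES_Obox3 value was -1.33 (adjusted p = 0.00219). In ES_Dux Dnmt3l stood at 20.2 and 21.6 TPM, called lower as deposited (log2 -1.44, adjusted p = 0.00115) and at -0.06 rescaled. With Obox4ps27 it stood at 15.4 TPM and with Obox4ps35 at 28.1 TPM, log2 differences of -1.86 and -1.03. The Obox4ps35 value, the 1 member past 1 in that library (6.19% of all genes), was -0.90 rescaled. With Obox8 it stood at 34.6 TPM, and in the other 6 single libraries between 45.2 and 69.2 TPM.

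Dnmt3b, the other catalytic enzyme, stood at 36.2 and 30.9 TPM in ES_Empty. It stood at 63.6 and 47.5 TPM in ES_Obox3, 72.1 and 69.3 TPM in ES_Obox5 and 62.4 and 58.2 TPM in ES_Obox6, all above ES_Empty. As deposited, the ES_Obox5 difference was called (log2 1.06, SE 0.196, adjusted p = 0.00923, limma), while those of ES_Obox3 (0.70) and ES_Obox6 (0.83) fell short of the fold threshold. The ES_Obox5 call was lost without ES_Empty library 2, without ES_Obox5 library 1 and without the unnumbered ES_Obox5 library (adjusted p = 0.0676, 0.0704 and 0.0604). Rescaled, Dnmt3b was called higher in all 3 groups, with log2 values of 1.32, 1.37 and 1.07. In ES_Dux it stood at 11.7 and 13.6 TPM, lower as deposited (log2 -1.34, adjusted p = 0.000628) and at 0.02 rescaled. With Obox8 it reached 62.4 TPM, against 38.1 TPM with Obox4ps27 and 28.4 to 38.8 TPM in the 6 single libraries closest to ES_Empty (Obox1, Obox2, Obox7 and Crxos1 to Crxos3).

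A ratio of genes within a library does not depend on scaling, and such ratios were computed after the values had been seen, as a description. Dnmt3a stood at 0.105 and 0.0746 of Dnmt3l in ES_Empty, and at 0.133 and 0.112 in ES_Dux. The ratio was 0.488 and 0.617 in ES_Obox3, 0.382 and 0.370 in ES_Obox5, and 6.94 and 6.45 in ES_Obox6. It was 1.45 with Obox4ps27, 0.388 with Obox8, 0.267 with Obox4ps35 and 0.0615 to 0.148 in the other 6 single libraries. Of the summed TPM of the 3 Dnmt3 genes, Dnmt3l made up 59.0 and 61.4% in ES_Empty and 6.67 and 7.07% in ES_Obox6, where Dnmt3a made up 46.3 and 45.6%. ES_Dux kept shares near those of ES_Empty (Dnmt3l 58.3 and 57.4%), although the TPM of all 3 genes were lower there.

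**Figure D2:**
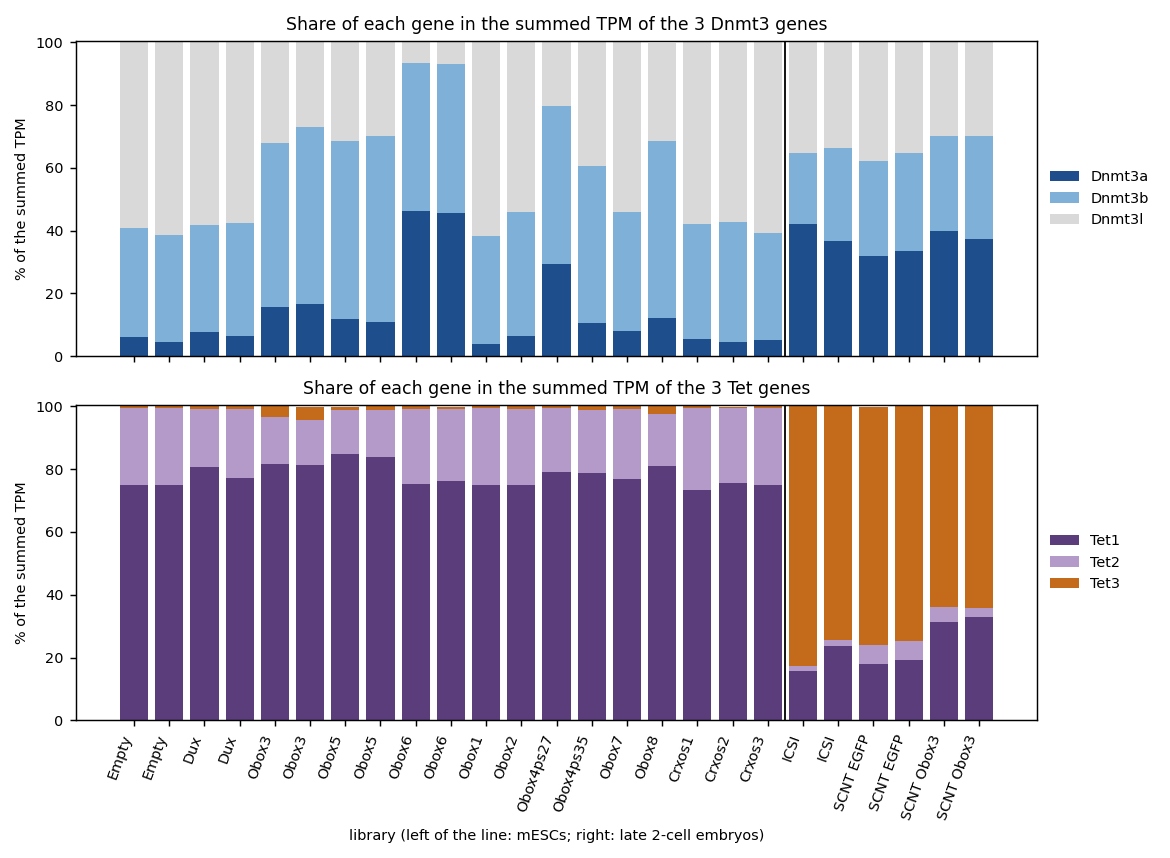
Share (%) of each gene in the summed TPM of the 3 Dnmt3 genes (top) and of the 3 Tet genes (bottom), 1 bar per library, with mESCs left of the line and late 2-cell embryos right of it. Dnmt3a takes 46.3 and 45.6% of the Dnmt3 sum in ES_Obox6 against 6.18 and 4.58% in ES_Empty, and Tet3 is the largest Tet share only in the 6 embryo libraries.

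Of the genes that copy methylation, Uhrf1 was lower than ES_Empty in every library of the 4 replicated groups, and Dnmt1 likewise. Dnmt1 stood at 63.7 and 52.1 TPM in ES_Empty, 17.6 and 18.3 TPM in ES_Dux, 41.4 and 29.0 TPM in ES_Obox3, 40.4 and 38.1 TPM in ES_Obox5 and 42.8 and 38.6 TPM in ES_Obox6. Of these, the ES_Dux difference alone was called (log2 -1.63, SE 0.209, adjusted p = 0.000399, limma), and it was -0.25 rescaled. Rescaled values in the Obox groups were -0.09, -0.22 and -0.25 and not called. Uhrf1 stood at 171 and 123 TPM in ES_Empty, 66.6 and 67.6 TPM in ES_Dux, 69.7 and 43.7 TPM in ES_Obox3, 81.4 and 76.6 TPM in ES_Obox5 and 77.8 and 65.5 TPM in ES_Obox6. It was called lower in ES_Dux (log2 -1.10, adjusted p = 0.00515) and ES_Obox3 (log2 -1.38, adjusted p = 0.00556). Without ES_Empty library 1 the ES_Dux value was -0.86. Rescaled, Uhrf1 was at 0.31 in ES_Dux, a change of sign, and at -0.74 (adjusted p = 0.0018), -0.54 (0.00972) and -0.76 (0.00436) in ES_Obox3, ES_Obox5 and ES_Obox6, none past the fold threshold. Within libraries Uhrf1 stood at 2.69 and 2.36 times Dnmt1 in ES_Empty, 3.78 and 3.70 times in ES_Dux, 1.68 and 1.51 times in ES_Obox3, 2.01 times in both ES_Obox5 libraries and 1.82 and 1.70 times in ES_Obox6. The 9 single libraries lay at 48.7 to 59.3 TPM for Dnmt1 and 119 to 151 TPM for Uhrf1, and none passed a log2 difference of 1.

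Of the Tet genes, Tet2 fell in ES_Dux, ES_Obox3 and ES_Obox5 on both scales. It stood at 31.2 and 27.3 TPM in ES_Empty, 3.45 and 4.83 TPM in ES_Dux, 9.58 and 5.79 TPM in ES_Obox3, 9.89 and 9.55 TPM in ES_Obox5 and 18.7 and 15.8 TPM in ES_Obox6. None of these libraries overlapped ES_Empty. The called log2 values were -2.57, -1.83 and -1.49 in ES_Dux, ES_Obox3 and ES_Obox5 (adjusted p = 0.000193, 0.0013 and 0.00535, limma). Rescaled they were -1.30, -1.23 and -1.17, and all 3 kept the call. In ES_Obox6 the value was -0.73 (adjusted p = 0.141). Tet2 stood at 15.4, 17.7 and 24.3 TPM with Obox8, Obox4ps35 and Obox4ps27, and at 26.2 to 29.8 TPM in the other 6 single libraries.

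Tet1, the most abundant Tet gene in mESCs, stood at 95.0 and 84.4 TPM in ES_Empty, 15.2 and 16.9 TPM in ES_Dux, 53.5 and 32.7 TPM in ES_Obox3, 59.3 and 53.4 TPM in ES_Obox5 and 59.0 and 52.0 TPM in ES_Obox6. It fell in ES_Dux on both scales (log2 -2.41 deposited, adjusted p = 0.000212, and -1.04 rescaled, adjusted p = 0.000148, limma). In ES_Obox3 the deposited value of -1.08 was called (adjusted p = 0.0112), but not rescaled (-0.45), without ES_Empty library 1 (-0.99, adjusted p = 0.0729) or without the unnumbered ES_Obox3 library (-0.73). Tet3, which oxidises methylcytosine in the zygote, was near the limit of these libraries at 0.676 and 0.663 TPM in ES_Empty, 0.169 and 0.156 TPM in ES_Dux, 0.812 and 0.780 TPM in ES_Obox5 and 0.578 and 0.588 TPM in ES_Obox6. It was 2.30 and 1.67 TPM in ES_Obox3 and 2.36 TPM with Obox8. The ES_Obox3 difference was 0.83 as deposited and not called, and 1.09 rescaled and called (adjusted p = 0.0038). Since Tet3 reached 1 TPM in no other group of that fit, it was tested only because it was high in ES_Obox3, and the call is no independent support. Tet3 made up 3.52 and 4.15% of the Tet sum in ES_Obox3, 2.54% with Obox8, 0.533 and 0.591% in ES_Empty and 0.487 to 0.715% in the 6 single libraries closest to ES_Empty.

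Tdg stood at 11.6 and 9.92 TPM in ES_Empty, 3.67 and 2.81 TPM in ES_Dux, 5.51 and 4.30 TPM in ES_Obox3, 6.78 and 7.07 TPM in ES_Obox5 and 10.6 and 9.47 TPM in ES_Obox6. It was called lower in ES_Dux as deposited (log2 -1.47, SE 0.192, adjusted p = 0.000421, limma) and not rescaled (-0.27). In ES_Obox3 it lay just inside the fold threshold (adjusted p = 0.00662, not called) and was called without ES_Empty library 2 (-1.10) or without ES_Obox3 library 1 (-1.14). The near-identical copy Tdg-ps2 held 13.8 TPM in ES_Empty and 5.27 TPM in ES_Dux on average, so the level of Tdg is uncertain.

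**Figure D3:**
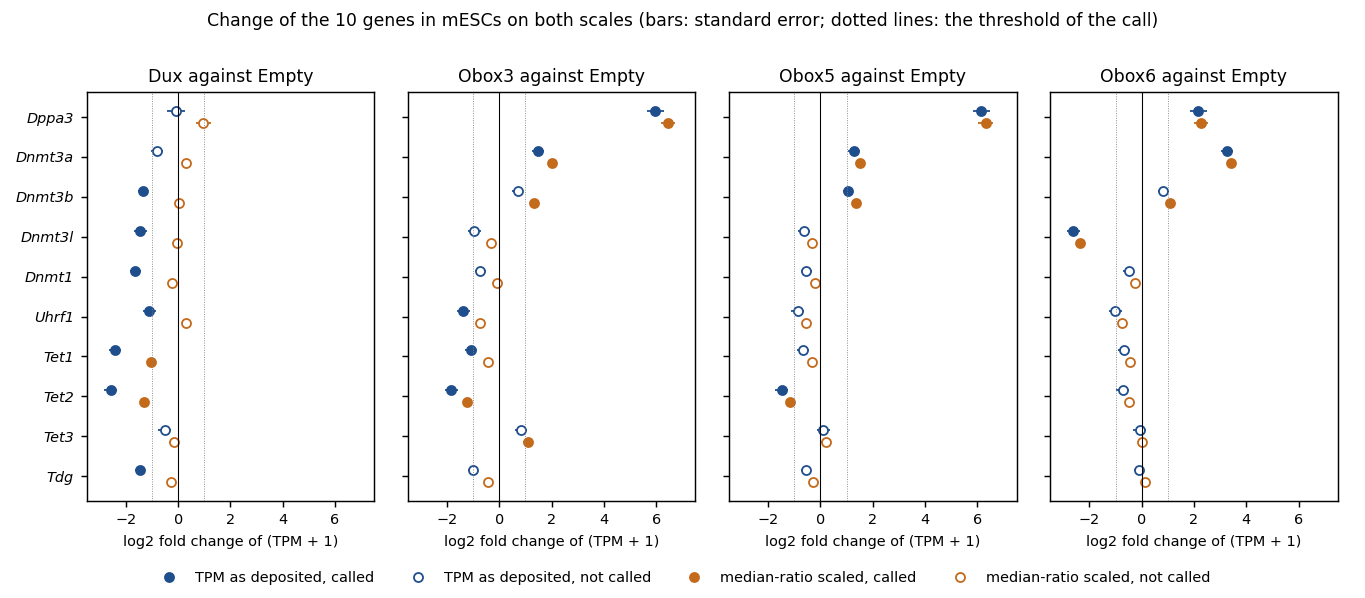
Log2 fold change of (TPM + 1) against ES_Empty for the 10 genes in 4 groups of 2 libraries, on TPM as deposited (blue) and rescaled (orange), with standard errors and filled points for called genes. In ES_Dux 7 genes are called as deposited and 2 rescaled, while Dppa3 in ES_Obox3, ES_Obox5 and ES_Obox6 is called on both scales.

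The Obox groups were also compared with each other. Between ES_Obox3 and ES_Obox5 limma called 0 of 10 members, and 0.054% of all genes were called (0.0393% higher, 0.0147% lower). An unadjusted p under 0.05 was found for 1 of the 10 members and for 2231 of 20355 genes. The log2 difference of Dppa3 was -0.18 (SE 0.327). Between ES_Obox3 and ES_Obox6 4 members were called, against 9.13% of all genes (2.52% higher, 6.61% lower). Dppa3 and Dnmt3l were higher in ES_Obox3 (log2 3.81 and 1.66, adjusted p = 0.000498 and 0.00477) and Dnmt3a was lower (-1.78, adjusted p = 0.00292). Tet2 was also lower (-1.10), a call lost on rescaling (-0.74), while Tet3 went from 0.91, not called, to 1.07, called. Since Tet3 was tested only because it was high in ES_Obox3, this call is no independent support. Between ES_Obox5 and ES_Obox6 Dppa3 and Dnmt3l were higher in ES_Obox5 (3.99 and 1.97, adjusted p = 0.00072 and 0.00371) and Dnmt3a was lower (-1.99, adjusted p = 0.0029), against 4.41% of all genes (2.4% higher, 2% lower). Rescaled, these 6 differences of Dppa3, Dnmt3l and Dnmt3a kept their calls. Of all genes, 7.56% were then called between ES_Obox3 and ES_Obox6 (4.36% higher, 3.2% lower). Between ES_Obox5 and ES_Obox6 the share was 4.92% (3.06% higher, 1.87% lower).

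Against ES_Dux, 5, 6 and 7 members were called higher in ES_Obox3, ES_Obox5 and ES_Obox6 as deposited and 0, 0 and 1 lower, where 23.7%, 31.8% and 40.1% of all genes were called (20.3%, 28.9% and 36.3% higher, 3.42%, 2.87% and 3.74% lower). Rescaled, 4, 3 and 3 were higher and 1, 0 and 2 lower, where 17.5%, 14% and 13.7% of all genes were called (9.47%, 7.54% and 6.96% higher, 8.04%, 6.43% and 6.7% lower), and Dppa3, Dnmt3a and Dnmt3b were called higher in each. Tet3 was among the members called higher in ES_Obox3 on both scales (log2 1.35 and 1.26). It passed the filter through the ES_Obox3 libraries alone, so its calls are no independent support. The log2 values of Dnmt3b against ES_Dux were 2.04, 2.39 and 2.17 as deposited and 1.30, 1.35 and 1.05 rescaled. Dnmt3l was lower in ES_Obox6 than in ES_Dux on both scales (-1.16 and -2.27). Tet1 was called higher in all 3 as deposited (1.33, 1.75 and 1.73) and in none rescaled (0.59, 0.70 and 0.60). Uhrf1 was called lower in ES_Obox3 and ES_Obox6 rescaled (-1.05 and -1.07) and not as deposited (-0.28 and 0.09), where its TPM overlapped. Calls of Dnmt1, Tet2 and Tdg as deposited were also lost on rescaling: Dnmt1 in ES_Obox5 and ES_Obox6 (1.09 and 1.14 to 0.03 and 0.01), Tet2 in the same groups (1.07 and 1.84 to 0.14 and 0.82) and Tdg in ES_Obox6 (1.38 to 0.41).

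In late 2-cell embryos, whose table was normalised on its own, Dppa3 was the most abundant member in all 6 libraries. It stood at 1856 and 1671 TPM in ICSI_L2C, 537 and 741 TPM in SCNT_EGFP_L2C and 1122 and 1109 TPM in SCNT_Obox3_L2C. The 3 groups did not overlap, and SCNT_Obox3_L2C lay between the others. The means were 1763 ± 131, 639 ± 144 and 1116 ± 9.11 TPM (SD, n = 2). Dppa3 fell to 0.362 of ICSI_L2C in SCNT_EGFP_L2C (log2 -1.48, SE 0.21, adjusted p = 0.00592, limma), also rescaled (-1.18). It was 1.75-fold higher in SCNT_Obox3_L2C than in SCNT_EGFP_L2C, which did not pass the test (log2 0.82, SE 0.21, adjusted p = 0.129), and 0.633 of ICSI_L2C (log2 -0.66, adjusted p = 0.091). Dppa3-ps followed at 41.7, 9.68 and 23.4 TPM on average.

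Of the 9 members tested in embryos, 1 was called lower in SCNT_EGFP_L2C against ICSI_L2C and 0 higher, against 17.3% of all genes (4.8% higher, 12.5% lower). The median of the 9 was a log2 difference of 0.36 as deposited and 0.64 rescaled, and that of all genes -0.20 and 0.04. Rescaled, 14.8% of all genes were called (6.91% higher, 7.86% lower), and Tet2 was called as well (1.12, adjusted p = 0.0333), from 1.14 and 1.35 TPM in ICSI_L2C to 2.95 and 3.65 TPM in SCNT_EGFP_L2C. Between SCNT_Obox3_L2C and SCNT_EGFP_L2C limma called 0 of 9 members, and 0.153% of all genes were called (0.11% higher, 0.0438% lower). An unadjusted p under 0.05 was found for 4 of the 9 members and for 3294 of 18252 genes. Between SCNT_Obox3_L2C and ICSI_L2C limma called 0 of 9, against 9.11% of all genes (2.8% higher, 6.31% lower). Here 2 of the 9 members and 5540 of 18252 genes had an unadjusted p under 0.05. The comparisons share libraries. Tet2 stood at 2.72 and 1.61 TPM in SCNT_Obox3_L2C.

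Tet3 was the most abundant Tet gene of the embryos, at 57.7 and 49.4 TPM in ICSI_L2C, 38.3 and 43.1 TPM in SCNT_EGFP_L2C and 35.2 and 36.5 TPM in SCNT_Obox3_L2C. It was called in none of the comparisons. Its share of the Tet sum was 82.7 and 74.3% in ICSI_L2C, 76.0 and 74.6% in SCNT_EGFP_L2C and 63.8 and 64.3% in SCNT_Obox3_L2C, lowest in the group with injected Obox3. Tet1 stood at 10.9 and 15.7 TPM, 9.16 and 11.02 TPM, and 17.3 and 18.7 TPM in the same order. Its log2 difference between SCNT_Obox3_L2C and SCNT_EGFP_L2C was 0.78 (SE 0.222, adjusted p = 0.151, no overlap of libraries). Its share of the Tet sum was 31.3 and 32.9% in SCNT_Obox3_L2C.

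The 3 Dnmt3 genes were nearer to each other in embryos than in mESCs of the empty plasmid. Dnmt3a stood at 9.97 and 9.32 TPM in ICSI_L2C, 9.84 and 10.4 TPM in SCNT_EGFP_L2C and 9.24 and 9.36 TPM in SCNT_Obox3_L2C, the most even of the 10 members. Dnmt3l stood at 8.40 and 8.56, 11.6 and 10.9, and 6.94 and 7.55 TPM in the same order, and Dnmt3b at 5.39 and 7.60, 9.27 and 9.79, and 7.01 and 8.27 TPM. The ratio of Dnmt3a to Dnmt3l was 1.19 and 1.09 in ICSI_L2C, 0.845 and 0.956 in SCNT_EGFP_L2C and 1.33 and 1.24 in SCNT_Obox3_L2C, without overlap. No such difference of a single Dnmt3 gene was called.

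Uhrf1 and Dnmt3l had a like order in embryos, highest in SCNT_EGFP_L2C and lower in both other groups. Dnmt3b and Tet2 were also highest in SCNT_EGFP_L2C, without overlap with the other groups. Uhrf1 stood at 36.8 and 33.8 TPM in ICSI_L2C, 51.6 and 46.05 TPM in SCNT_EGFP_L2C and 30.7 and 33.7 TPM in SCNT_Obox3_L2C. Its log2 difference between SCNT_Obox3_L2C and SCNT_EGFP_L2C was -0.59 (SE 0.162, adjusted p = 0.144, limma) and that of Dnmt3l was -0.57 (SE 0.173, adjusted p = 0.165). Dnmt1 stood at 40.4 and 46.2 TPM in ICSI_L2C, 53.2 and 58.3 TPM in SCNT_EGFP_L2C and 53.7 and 54.3 TPM in SCNT_Obox3_L2C, a log2 difference of 0.36 and 0.32 from ICSI_L2C that was not called. Rescaled, these were 0.65 and 0.59 (adjusted p = 0.0123 and 0.0265, limma). In SCNT_EGFP_L2C against ICSI_L2C, rescaled Uhrf1, Dnmt3b and Dnmt3l were at 0.75, 0.77 and 0.64 (adjusted p = 0.0294, 0.0291 and 0.0416). None of these rescaled values passed the fold threshold. Tdg was at 0 to 0.471 TPM in the 6 libraries, under the filter of 1 TPM in 2 libraries, and was not tested.

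**Figure D4:**
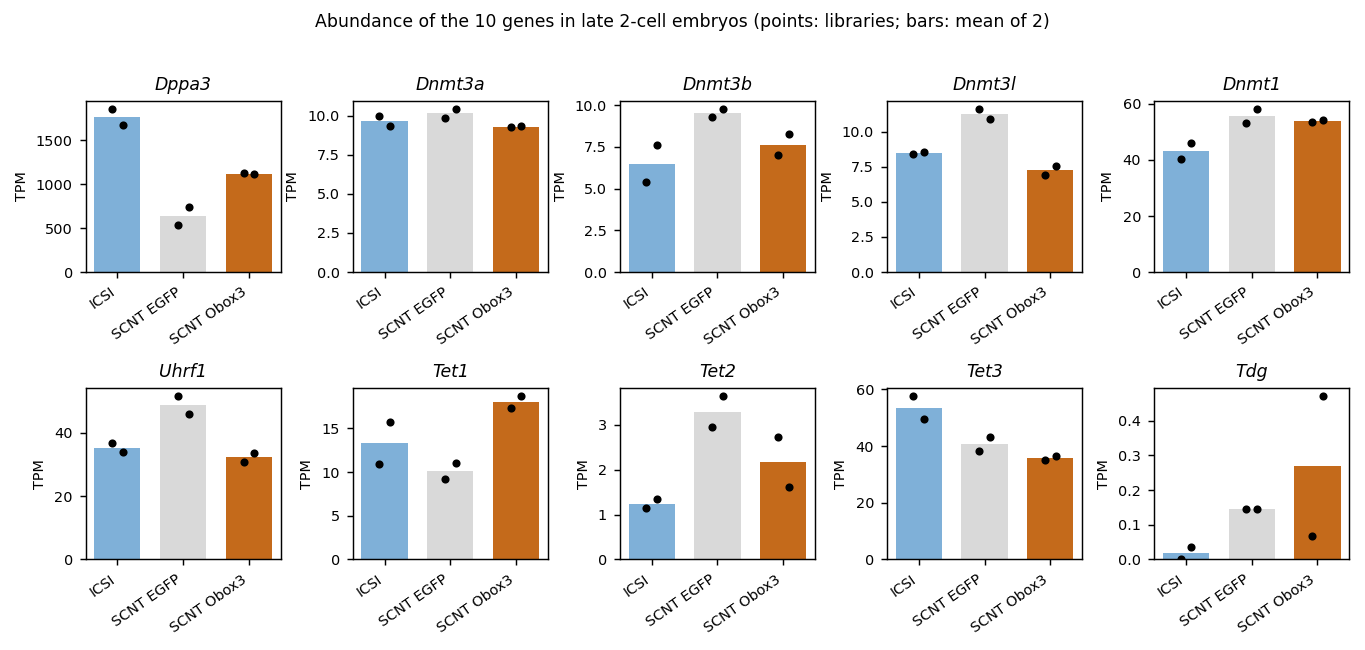
TPM of the 10 genes in late 2-cell embryos of 3 groups, with a point for each library and bars at the mean of 2. Dppa3 separates the groups without overlap (1671 TPM or more in ICSI_L2C, at most 741 in SCNT_EGFP_L2C, 1109 and 1122 in SCNT_Obox3_L2C), and Dnmt3a lies between 9.24 and 10.4 TPM in all 6 libraries.

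The wider pathway was read from 10 lists with 69 other genes (partners of maintenance, regulators of the Dnmt3 enzymes, readers of methylated CpG, imprint protection, Tet partners, base excision repair, the methyl donor cycle, germline genes known to be silenced by promoter methylation, neighbours of Dppa3, and other Dppa genes). In mESCs 66 passed the filter. As deposited, 0 were higher and 40 lower in ES_Dux, 4 and 11 in ES_Obox3, 4 and 3 in ES_Obox5, and 2 and 3 in ES_Obox6. Of all genes, 4.12% were higher and 44.4% lower in ES_Dux, 4.67% and 13.6% in ES_Obox3, 4.79% and 5.47% in ES_Obox5, and 2.39% and 1.99% in ES_Obox6. Rescaled, the counts were 0 and 3, 6 and 1, 5 and 2, and 2 and 3, against 6.83% and 2.3%, 7.74% and 3.76%, 6.16% and 2.34%, and 3.28% and 1.17% of all genes. The median log2 differences of the list were -1.22, -0.48, -0.27 and -0.17 as deposited and -0.11, 0.02, 0.04 and 0.07 rescaled, beside -0.97, -0.42, -0.20 and -0.09 and -0.06, 0.00, 0.02 and 0.05 for all genes. The 3 genes still lower in ES_Dux after rescaling were Zfp57, a zinc finger protein that protects imprints (12.8 ± 1.64 TPM against 101.4 ± 8.16 in ES_Empty, SD, n = 2), Tfap2c and Zbtb38.

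Sycp3, a germline gene of the meiotic chromosome axis, rose in all 3 Obox groups, from 5.55 ± 1.77 TPM in ES_Empty to 78.8 ± 10.8 in ES_Obox3, 51.9 ± 11.1 in ES_Obox5 and 31.2 ± 9.26 in ES_Obox6 (SD, n = 2, log2 3.63, 3.02 and 2.29, adjusted p = 0.000118, 0.000381 and 0.00272, limma). Brdt, a bromodomain gene of spermatogenesis, rose in ES_Obox3 and ES_Obox5 (log2 1.89 and 2.04) from 0.298 TPM, a level below the filter. It was tested only through libraries of groups other than ES_Empty, so its rise is no independent support. Of the 11 germline genes tested, 2 rose in each of these groups, Brdt among them, and 1 in ES_Obox6. With Brdt set aside, Sycp3 alone rose in each group. Of all genes, 4.67%, 4.79% and 2.39% were higher in ES_Obox3, ES_Obox5 and ES_Obox6. Tex19.1 was lower in ES_Obox3 (-1.11) as deposited but not rescaled. Dppa2, another gene of early embryos and mESCs, rose from 37.1 ± 6.30 TPM to 135 ± 35.8 in ES_Obox3 and 155 ± 16.8 in ES_Obox5 (SD, n = 2). Rescaled, its partner Dppa4 was called as well (log2 1.44 and 1.23). Gadd45a, a gene linked to DNA repair and demethylation, fell in all 3 Obox groups (-2.62, -2.11 and -1.77), all kept when rescaled. Zfp57 was lower in ES_Obox3 and ES_Obox5 (-1.51 and -1.38), rescaled in ES_Obox5 only (-1.05). Tfap2c was lower in ES_Obox6 (-1.80, adjusted p = 0.00265).

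In embryos 60 of the 69 genes were tested. SCNT_EGFP_L2C had 3 higher and 14 lower than ICSI_L2C as deposited (4.8% and 12.5% of all genes) and 3 and 9 rescaled (6.91% and 7.86%). Tfap2c stood at 3.45 ± 0.410 TPM against 48.5 ± 6.55 in ICSI_L2C (SD, n = 2, log2 -3.47, adjusted p = 0.000978, limma). The meiotic genes Sycp1 and Hormad1 were lower (log2 -4.08 and -2.69) while Sycp3 was higher (2.49), as were Lig1, the ligase of replication (2.00), and Xrcc1, a scaffold of base excision repair (1.53). Dppa5a was lower (-2.18). Between SCNT_Obox3_L2C and SCNT_EGFP_L2C limma called 0 of the 60 as deposited and 5 higher rescaled, against 0.11% and 1.05% of all genes higher. These were Dppa5a, Tfap2c, Dppa2, Parp1 and Mat2a, with rescaled log2 values of 1.40, 1.36, 1.22, 1.21 and 1.20 (adjusted p = 0.0416 to 0.0486). As deposited their values were 1.41, 1.37, 1.24, 1.22 and 1.22 with adjusted p from 0.066 to 0.0895. Against ICSI_L2C, SCNT_Obox3_L2C had 3 higher and 8 lower (2.8% and 6.31% of all genes) and 4 and 6 rescaled (4.15% and 3.65%).

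Markers of other cell types moved with several of these groups, and their part in the members' values was not tested. The summed TPM of 7 mESC markers was 1114 to 1292 in ES_Empty, 358 to 382 in ES_Dux, 410 to 582 in ES_Obox3, 568 to 588 in ES_Obox5 and 606 to 728 in ES_Obox6. As deposited 6, 5, 3 and 3 of the 7 were called lower in ES_Dux, ES_Obox3, ES_Obox5 and ES_Obox6, and rescaled 2, 2, 2 and 3. In the same order, 44.4%, 13.6%, 5.47% and 1.99% of all genes were lower as deposited. Rescaled, these shares were 2.3%, 3.76%, 2.34% and 1.17%. Sox2 fell by 2.50, 2.32 and 2.51 on the log2 scale in the Obox groups. The summed TPM of 4 primitive endoderm markers was 0.507 to 0.955 in ES_Empty and 15.9 to 26.6 in ES_Obox3, 20.6 to 22.1 in ES_Obox5 and 7.45 to 8.77 in ES_Obox6, with Gata4 at 3.95 TPM or more in every library of the 3 groups and at most 0.525 TPM in ES_Empty. Of 5 trophoblast markers, Krt18 rose in the 3 groups (log2 2.76, 2.82 and 3.53) and Eomes fell, and the sum was 16.8 to 20.3 in ES_Empty and 67.2 to 95.8 in ES_Obox6. Of 3 markers of primed pluripotent cells, 1 passed the filter, Pou3f1, and it rose in ES_Obox6 (1.24 ± 0.320 to 11.2 ± 0.651 TPM, SD, n = 2, log2 2.45). The 3 summed to 2.103 to 2.698 TPM in ES_Empty and 11.95 to 12.31 TPM in ES_Obox6, where Pou3f1 made up most of the sum. It was the 1 marker of the list at 1 TPM or more in both ES_Obox6 libraries, so the list as a set did not rise. The 7 markers of the 2-cell stage summed to 0.687 to 1.77 TPM in ES_Empty, 6156 to 7173 in ES_Dux and at most 13.1 in the Obox groups. This list holds Duxf3, the gene on the ES_Dux plasmid, at 1548 and 1979 TPM in ES_Dux. Part of the ES_Dux sum is therefore the transfected gene. In embryos all 7 oocyte markers stood at 1 TPM or more, with sums of 579 to 644 in ICSI_L2C, 456 to 492 in SCNT_EGFP_L2C and 378 to 391 in SCNT_Obox3_L2C. The 6 cumulus cell markers summed to at most 2.53 TPM and the 5 fibroblast markers to at most 1.28 TPM, with 0 of either list at 1 TPM in both libraries of a group. The 2-cell markers, at 387 to 565 TPM in ICSI_L2C, were at 114 to 156 in SCNT_EGFP_L2C and at 163 to 240 in SCNT_Obox3_L2C. Limma called 0 of the 7 between the SCNT groups, against 0.153% of all genes. The median log2 difference of the 7 from ICSI_L2C was -1.66 in SCNT_EGFP_L2C and -2.05 in SCNT_Obox3_L2C, beside -0.20 and -0.22 for all genes.

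Over the 19 mESC libraries, the genes whose log2(TPM + 1) followed Dppa3 most closely among 23428 were Brdt, Mad2l1bp, Lat2, Pramel7 and Rab20 (Pearson r 0.937 to 0.929). After rescaling, 0 of these 5 stayed among the first 5. For Dnmt3a they were Tent5b, Aldh1l1, Ctsl, Lamb1 and Gpat3 (r 0.980 to 0.924), and 5 of 5 stayed. Among the members, Dnmt1, Tet1, Tet2 and Tdg had r from 0.87 to 0.98 with each other as deposited, and Dnmt3a and Dnmt3l had -0.67. The libraries share groups, scaling and the empty-plasmid background, so these are descriptions. Brdt, Lat2, Pramel7, Rab20 and Gpat3 averaged 0.298, 0.627, 0.111, 0.425 and 0.141 TPM in ES_Empty. These genes passed the filter through libraries where they were higher, so their r is no independent support.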

How the data were processed

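Total RNA libraries were made with a stranded SMART-seq kit, per the labels' protocols. The authors deposited TPM values for genes: the mESC table names the unit in its headers, the embryo table in its title, and all columns sum to 1000000. The submitters' processing notes name Trim Galore, HISAT2, featureCounts 1.6.5 and mm10 among others, without roles. Annotation, strand setting and multimapped reads: not given in the sources used here, so genes with near-identical copies and overlapping genes are uncertain. Both tables were normalised separately, so tests stayed within a table. Counts were not recovered from the TPM, and no count model was used.

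A column's name tied it to its sample. The names of 3 columns, of ES_Dux, ES_Obox3 and ES_Obox5, give a group with a number that no label has. Each was used within its group and is called the unnumbered library. The libraries of each replicated group differed at many genes, and none was a copy of another.

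Values were tested as log2(TPM + 1). The fits used limma 3.58.1 (R 4.3.3, statmod 1.5.0) with trended variances and robust shrinkage, and p-values were adjusted by Benjamini-Hochberg over all genes at 1 TPM or more in at least 2 fitted libraries (20355 in mESCs, 18252 in embryos). The replicated groups of a table shared the spread (5 residual and 3.71 prior degrees of freedom in mESCs, 3 and 3.48 in embryos). Log2 values on this scale understate the change of low genes. The script was tested on simulated data. Single libraries were set against the ES_Empty mean with no test.

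Named genes were all members in every comparison, the expressed gene, up to 4 called genes per list and comparison by size of change, and the 5 genes most like Dppa3 and Dnmt3a. The members and the lists were chosen with earlier results of these data known. Alternatives were other scalings, a pseudocount of 0.1, no filter, only the groups compared, plain limma, each library left out and a replicate block. 1 gene of the lists is not reported here by name.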

Additional observations from a re-analysis of the deposited data

How the results depend on the processing

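Most limits come from scaling, from 2 libraries a group and from few reads near 1 TPM, which bear on Tet3 in mESCs and on Tet2 and Tdg in embryos. The number of members called in ES_Dux was 2 with median-ratio scaling and 2 with upper-quartile scaling, against 7. In SCNT_EGFP_L2C against ICSI_L2C it was 2 with either scaling, against 1. Scaling changes only the common level of a library, and the cause of its size was not tested. With Obox4ps35 0 members passed a log2 difference of 1 after median-ratio scaling, against 1, and with Obox7 and Crxos1 1 passed (Dppa3) at a pseudocount of 0.1, against 0. At a pseudocount of 1, 7.4% and 4.76% of all genes passed with Obox7 and Crxos1, and the share at 0.1 is not given here. Leaving out 1 library at a time gave 2 to 4 called members in ES_Obox5 (4 in all), 6 to 8 in ES_Dux, 4 to 7 in ES_Obox3 and 2 to 3 in ES_Obox6. The smaller counts in ES_Obox5 came without ES_Empty library 2 or ES_Obox5 library 1. Where a group kept 1 library, it was assumed to vary like the others. Without a filter, without trend and robust moderation and with only the groups compared, no member changed its call, and at a pseudocount of 0.1 Tet3 in ES_Dux (-1.55) and Tdg in ES_Obox3 (-1.12) gained one. Over all genes, counts of calls moved by over 1.5 times: in ES_Dux from 9867 to 1860 with median-ratio and 1928 with upper-quartile scaling, in ES_Obox3 from 3721 to 2342 and 2360 (2234 to 4902 leaving out 1 library), in ES_Obox5 from 2088 to 1074 to 1237 leaving out 1 library, and in ES_Obox6 from 892 to 567 without a filter, 576 with only the groups compared and 325 to 400 leaving out 1 library. In SCNT_EGFP_L2C against ICSI_L2C 3164 became 1475 to 2691, and in SCNT_Obox3_L2C against ICSI_L2C 1663 became 404 to 605 leaving out 1 library and 718 without a filter. In SCNT_Obox3_L2C against SCNT_EGFP_L2C 28 became 222 with median-ratio scaling, 3 without trend, 0 without a filter or with only the groups compared, and 0 to 5 leaving out 1 library.

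The replicate numbers pair the libraries by number only. Deviations of libraries with the same number had correlations of 0.014 to 0.067. With a replicate block, 0 members were called in ES_Obox6 against ES_Empty, where the fit has 4 libraries and 1 gene of all those tested was called. By limma, 8 members had an unadjusted p under 0.05 there, as did 5245 of 17142 genes. Tet3 was below the filter in that fit. In embryos the replicate block changed no member's call.

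Signs changed for members that were not called as deposited, apart from Dnmt3b and Uhrf1 in ES_Dux. In ES_Dux median-ratio scaling gave Dppa3 0.96, Dnmt3a 0.32, Dnmt3b 0.02 and Uhrf1 0.31, and upper-quartile scaling gave Dppa3 0.93, Dnmt3a 0.29 and Uhrf1 0.26. Leave-one-out values of Dppa3 there ran from -0.49 to 0.34 (0.17 without ES_Empty library 1). In ES_Obox6 median-ratio scaling gave Tet3 0.02 and Tdg 0.13, upper-quartile scaling gave Tdg 0.07, and leaving out 1 library gave Tdg -0.19 to 0.01. In SCNT_EGFP_L2C against ICSI_L2C upper-quartile scaling gave Tet1 0.06 and Tet3 0.06. In SCNT_Obox3_L2C against ICSI_L2C the median-ratio values were Dnmt3a 0.21, Dnmt3l 0.05 and Uhrf1 0.14, and the upper-quartile values 0.26, 0.10 and 0.21. Against SCNT_EGFP_L2C, leaving out 1 library gave Dnmt1 -0.11 to 0.02. Between groups with plasmids, median-ratio scaling gave, against ES_Dux, Dnmt3l -0.26 and Tdg -0.15 in ES_Obox3, Dnmt3l -0.25 and Uhrf1 -0.85 in ES_Obox5, and Uhrf1 -1.07 in ES_Obox6. In ES_Obox3 it gave Dppa3 0.13 and Dnmt1 0.13 against ES_Obox5, and Dnmt1 0.16, Dnmt3b 0.25 and Uhrf1 0.02 against ES_Obox6. Dnmt1 was 0.02 in ES_Obox5 against ES_Obox6.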
